A study of Sus scrofa domesticus with 2 samples.

Results

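Blood clotting at the vessel wall was followed through 5 of the 22804 genes in the counts, chosen by name: VWF (ENSSSCG00000000712), F3 (ENSSSCG00000022447), TFPI (ENSSSCG00000016032), THBD (ENSSSCG00000007115) and PROCR (ENSSSCG00000026585). All 5 were found among the features of both libraries. The samples were primary endothelial cells (ECs) of the domestic pig, grown from the lung and from the stretch of aorta near the lung, with 1 droplet scRNA-seq library each. Cells of both vessels were released with collagenase from the flushed vessel and grown in DMEM with 10% fetal calf serum, non-essential amino acids, sodium pyruvate, Glutamax and antibiotics, with no added treatment. The methods give the pigs behind the scRNA-seq tissues as hybrids of Landrace, Large White and Duroc, 6 months old, without saying whether the cultures came from the same animals, and the number of passages was not given in the sources used here. Levels were read in cells with more PECAM1 UMIs than COL1A1 plus COL1A2 UMIs, called endothelial here, and in collagen-high cells, which held more COL1A1 plus COL1A2 than PECAM1 UMIs and at least 1000 UMIs of these collagens per 1000000 UMIs (CPM).

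The 5 genes sit on opposite sides of clotting. F3 encodes tissue factor, the membrane protein that starts the clotting cascade, and TFPI encodes the inhibitor that shuts this start off. THBD encodes thrombomodulin, which binds thrombin and turns it towards protein C, while PROCR encodes the endothelial receptor that holds protein C for this step. VWF encodes von Willebrand factor, the large adhesive protein that ties platelets to the vessel wall, carries factor VIII and is stored in the Weibel-Palade bodies of ECs. VWF is widely used as a marker of ECs, and resting endothelium in vivo is known for thrombomodulin and the protein C receptor and for little tissue factor.

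A 3′ library counts an RNA near its last bases, so the annotated end of each gene is where its reads should fall, and CPM was not divided by gene length. In RefSeq on Sscrofa11.1, VWF lay on the plus strand of chromosome 5 at 64516627 to 64655938, F3 on the plus strand of chromosome 4 at 122827018 to 122837673, and TFPI on the minus strand of chromosome 15 at 92345083 to 92409962. THBD, a gene of 1 exon, lay on the minus strand of chromosome 17 at 30219870 to 30223499, and PROCR on the plus strand of the same chromosome at 38532530 to 38537397. The annotated 3′ UTR was 124 bases long in VWF, 580 in PROCR, 636 in F3, 1796 in THBD and 2480 in TFPI. The last 30 bases of each gene, all inside its 3′ UTR, are shown 5′ to 3′. Matches to a hexamer of the polyadenylation signal (AATAAA or ATTAAA, searched on the strand of the gene) are in capitals.
VWF, chr5:64655909-64655938, plus strand: aaaggccgagttgtgtcctcttgcccatgg
F3, chr4:122837644-122837673, plus strand: ataAATAAAggtgactggatattgtgacta
TFPI, chr15:92345083-92345112, minus strand: ataaaatatattaccctggaaAATAAAgta
THBD, chr17:30219870-30219899, minus strand: gataaactagaacacaggcaaaacacttgc
PROCR, chr17:38537368-38537397, plus strand: ttacaatgttATTAAAatataaattcctta
F3, TFPI and PROCR held a hexamer in this window and VWF and THBD did not, while 54.7% of 19560 protein-coding genes held 1 of these hexamers in theirs. The hexamer ended 21 bases before the annotated end in F3, 14 in PROCR and 3 in TFPI. Whether it serves as the signal for that end was not tested. The window shows only the letters at the RefSeq end. The counts were made on Ensembl gene models, and whether the true ends of VWF and THBD lie beyond those models was not tested, so a low count of these genes is a low count of reads assigned to the model.

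The aorta library held 1185 barcodes and the lung library 5946, and 5 barcode sequences occurred in both. Within the limits of the methods (over 200 and under 5000 genes, under 30% mitochondrial UMIs) the lung library gave 5286 endothelial cells with 52099106 UMIs and 343 collagen-high cells with 3865992 UMIs. The aorta library gave only 123 endothelial cells with 1239576 UMIs and 29 collagen-high cells with 222813 UMIs, because most of its cells were deeper than the limit. In all, 246 aorta cells were within the limits and 955 without the upper limit. The number of filtered cultured aorta cells that the paper reports lies between these, so how the upper limit was applied there is not known. The 581 endothelial and 128 collagen-high aorta cells with 5000 genes or more held 34656769 and 8733620 UMIs, and they are given beside the cells within the limits. Within the limits, 27 of the 123 endothelial and 6 of the 29 collagen-high aorta cells had under 1% mitochondrial UMIs. This held for 12 of the 5286 lung endothelial cells and 0 of the deep aorta cells. Without such cells the lung-to-aorta endothelial ratios were 0.197 for THBD, 3.08 for TFPI, 0.817 for F3 and 0.260 for PROCR. Endothelial markers summed to 2831 to 3366 CPM in the endothelial classes, against 29.8 to 207 CPM for fibroblast markers. These sums include PECAM1, COL1A1 and COL1A2, which define the classes, so part of this contrast was set by the class rule. PTPRC was at 0 in the endothelial aorta cells and had a UMI in 6 of 5286 lung endothelial cells. KDR, the main VEGF receptor of ECs, was an exception among the markers at 1.77 CPM or less. The collagen-high classes also held smooth muscle markers, from 2648 to 3770 CPM in sum, and the endothelial classes held less of them, 966 CPM in the lung and 248 to 296 CPM in the aorta. Each value below is a pooled level of 1 library, so no difference between lung and aorta has a replicate check, and tissue, animal, culture and library cannot be told apart. Intervals are 95% intervals (exact Poisson for a level, exact binomial for a ratio or share) that cover counting error only.

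VWF was almost absent. In lung endothelial cells 21 VWF UMIs gave a level of 0.403 CPM (0.250 to 0.616), in 18 of 5286 cells. Aorta endothelial cells within the limits held 0 VWF UMIs, which allows a level of up to 2.42 CPM (taken as 3 counts in the class), and the deep ones held 7 UMIs, a level of 0.202 CPM (0.0812 to 0.416). For scale, the same lung cells held 8148 UMIs of CDH5, the adhesion protein VE-cadherin.
Of the 18 lung cells, 16 held 1 VWF UMI, and the highest held 3 UMIs, or 245 CPM of that cell. These cells were of ordinary size, from 6294 to 21364 UMIs, 12 of the 18 had a CDH5 UMI and 0 had a PTPRC UMI. In the aorta the 7 UMIs lay in 6 deep cells, each of them with CDH5. One lung cell of neither class, deeper than the limits, also held 1 VWF UMI. VWF was therefore met mostly as single UMIs, and the highest cell in either library held 3.
Collagen-high cells held 0 VWF UMIs in the lung, which allows up to 0.776 CPM by the same 3 counts, and 1 UMI in the deep aorta cells. With the deep cells included the lung level was 2.04 times that of the aorta (0.837 to 5.69), an interval that holds 1, so no order between the libraries was detectable at this depth. The same was true of the order between endothelial and collagen-high cells.

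**Figure D1:**
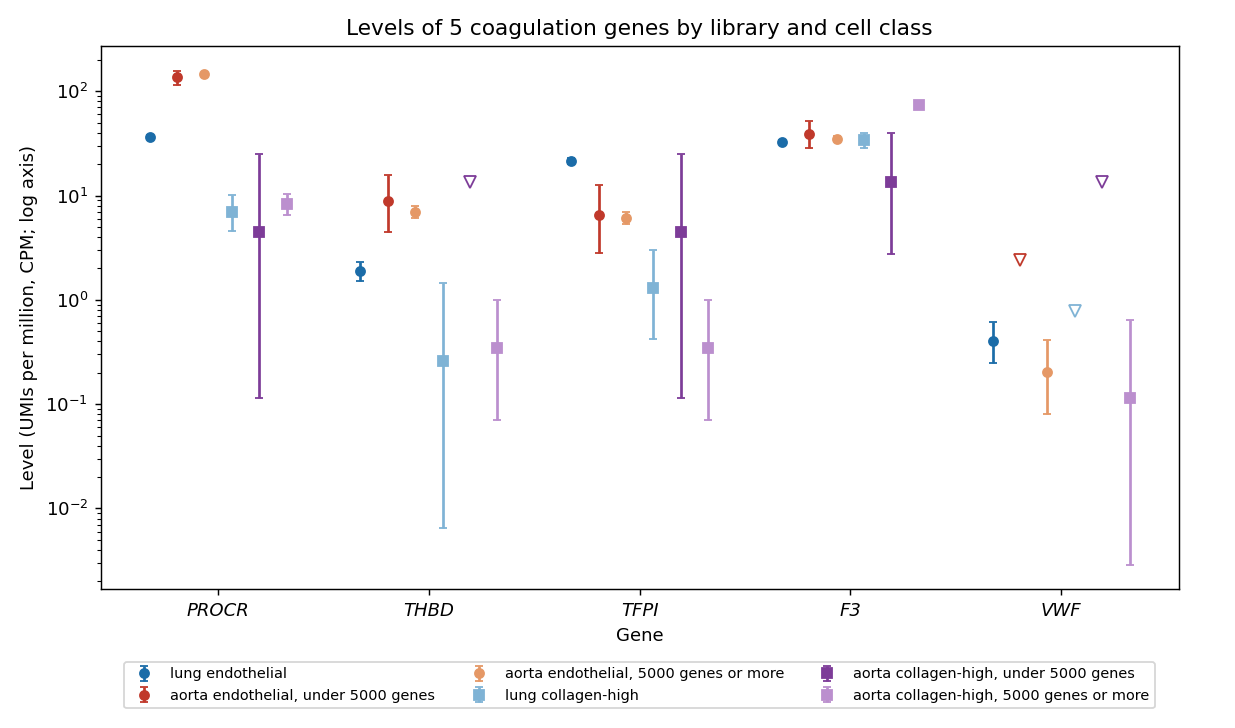
Level of each gene in CPM (log axis) in endothelial cells (circles) and collagen-high cells (squares) of both libraries. Bars are exact 95% Poisson intervals, and an open triangle is the level that 3 counts would give in a class with 0 UMIs. F3 lies between 13.5 and 74.4 CPM in every class, PROCR is highest in the aorta endothelial classes, and VWF stays below 1 CPM wherever it was counted.

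F3, the starter of clotting, was present at much the same level in the endothelial cells of both vessels. It reached 32.6 CPM (31.1 to 34.2) in the lung, 38.7 CPM (28.6 to 51.3) in aorta cells within the limits and 35.2 CPM (33.2 to 37.2) in the deep aorta cells. The lung-to-aorta ratio was 0.843 (0.633 to 1.15), and 0.924 (0.859 to 0.994) with no upper limit on genes. F3 passed the fold of 2 in neither direction, where 3.84% of 6127 genes with 20 CPM or more in either class were over this fold in the lung and 6.37% in the aorta.
F3 was not confined to endothelial cells in these cultures. Lung collagen-high cells held 33.9 CPM (28.3 to 40.2), so the endothelial level was 0.963 times theirs (0.806 to 1.16). Deep aorta collagen-high cells held 74.4 CPM (68.8 to 80.4), above every other class, and 2.12 times the level of the deep endothelial cells (1.92 to 2.33).
In the small aorta classes within the limits the order was the other way, with 48 endothelial UMIs against 3 collagen-high UMIs (13.5 CPM, 2.78 to 39.3) and a ratio of 2.88 (0.927 to 14.4). By the fold of 2 this order counts F3 as higher in endothelial cells, together with 13.9% of 6516 genes, 13.3% being higher in collagen-high cells. Once the deep cells are included it counts F3 as higher in collagen-high cells, at an endothelial-to-collagen-high ratio of 0.484 (0.440 to 0.533), in which direction 7.73% of 6289 genes were called and 12.6% in the other. The second value rests on 1267 and 653 UMIs. The deep collagen-high aorta cells held 5.53 times the F3 of those within the limits (1.88 to 26.9).
Between the collagen-high classes themselves, the aorta held 2.15 times as much F3 as the lung (1.78 to 2.62) when the deep aorta cells were included. Within the limits the aorta value was the lower one, 13.5 against 33.9 CPM, from 3 UMIs.

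TFPI, the inhibitor of the tissue factor pathway, was the gene of the 5 whose lung-to-aorta ratio lay above 1 with its whole interval. Its level was 21.5 CPM (20.2 to 22.8) in lung endothelial cells, 6.45 CPM (2.79 to 12.7) in aorta cells within the limits and 6.09 CPM (5.29 to 6.97) in the deep ones. The lung-to-aorta ratio was 3.33 (1.68 to 7.72), and 3.51 (3.03 to 4.07) with no upper limit, where 1.3% of 5915 genes were over the fold of 2 in the lung.
TFPI was low in collagen-high cells, at 1.29 CPM (0.420 to 3.02) in the lung and 0.344 CPM (0.0708 to 1.00) in the deep aorta cells, from 5 and 3 UMIs. The endothelial level was 16.6 times that of collagen-high cells in the lung (7.09 to 51.2) and 17.7 times in the deep aorta cells (5.98 to 86.6). In aorta cells within the limits it was 1.44 times (0.193 to 63.8), from 8 UMIs and 1 UMI, and 0.317 times in cells thinned to 5000 UMIs, which gives no order there, and the lung ratio was 10.8 (5.46 to 25.1) with no upper limit. TFPI and PROCR were the genes of the 5 called higher in lung endothelial than in lung collagen-high cells, as were 9.67% of 6059 genes.

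THBD and PROCR, which act together on protein C, were both higher in the aorta. THBD was low in either vessel, at 1.88 CPM (1.53 to 2.29) in lung endothelial cells, 8.87 CPM (4.43 to 15.9) in aorta cells within the limits and 6.95 CPM (6.10 to 7.89) in the deep ones. The aorta level was 4.72 times the lung level (2.28 to 8.82), and 3.74 times (2.95 to 4.76) with no upper limit. Its levels of under 20 CPM in every class kept THBD, like VWF, out of the counts of genes past a fold of 2.
Collagen-high cells held 1 THBD UMI in the lung and 3 in the deep aorta cells, 0.259 and 0.344 CPM. The endothelial level was 20.2 times that of collagen-high cells in the deep aorta cells (6.84 to 98.9) and 7.27 times in the lung (1.28 to 290), the latter resting on 1 UMI and falling to 1.03 in cells thinned to 2000 UMIs.
PROCR gave the most UMIs of the 5 in aorta endothelial cells. Its level was 36.3 CPM (34.6 to 37.9) in lung endothelial cells, 136 CPM (116 to 158) in aorta cells within the limits and 146 CPM (142 to 151) in the deep ones. The aorta level was 3.74 times that of the lung (3.17 to 4.38), and 4.02 times (3.81 to 4.24) with no upper limit, where 3.08% of genes were over the fold of 2 in the aorta. The deep and the other aorta endothelial cells did not differ beyond their intervals in THBD, TFPI, F3 or PROCR, the deep-to-other ratio being 1.08 for PROCR (0.927 to 1.27) and 0.784 for THBD (0.430 to 1.59).
PROCR in collagen-high cells was 6.98 CPM (4.60 to 10.2) in the lung and 8.24 CPM (6.45 to 10.4) in the deep aorta cells, so the endothelial level was 5.19 times as high in the lung (3.56 to 7.90) and 17.8 times in the deep aorta cells (14.1 to 22.7).

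**Figure D2:**
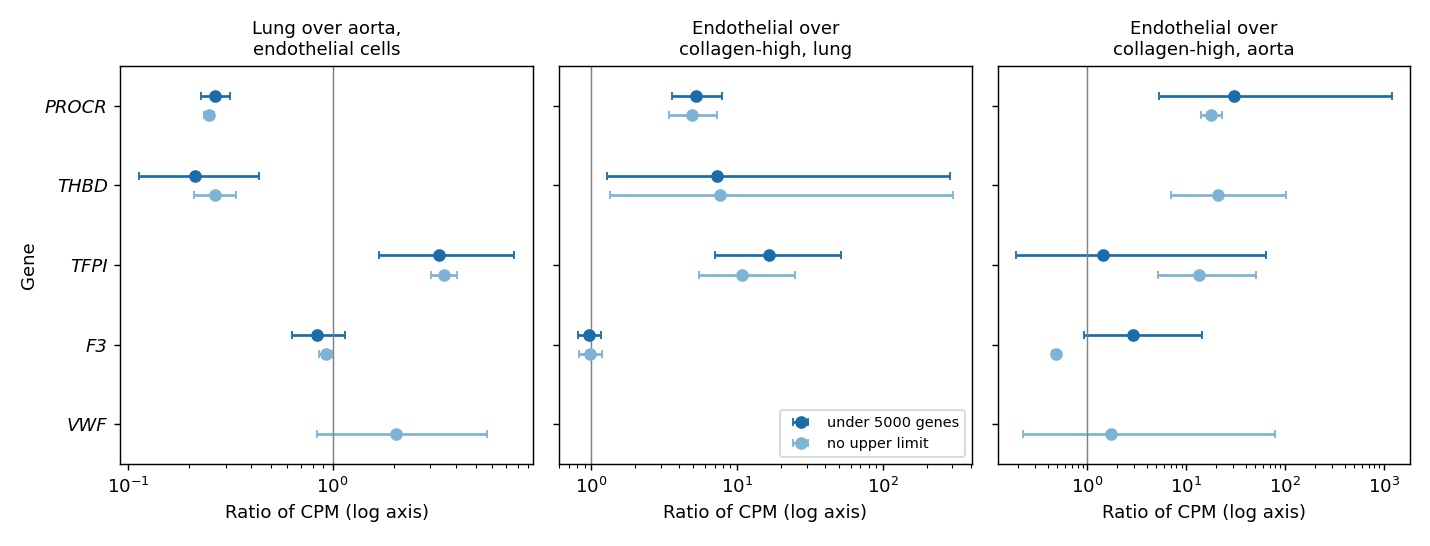
Ratio of pooled CPM (log axes) for lung over aorta endothelial cells (left) and for endothelial over collagen-high cells in the lung (middle) and aorta (right), with exact 95% intervals. Dark points are cells within the limits and light points include the deeper cells too, and a missing point is a class with 0 UMIs. TFPI lies right of 1 and THBD and PROCR left of 1 in the left panel, and F3 in the aorta changes side with the limit, from 2.88 to 0.484.

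RNA of endothelial markers was also counted in collagen-high cells, and its share of the endothelial level is set beside that of the 5 genes. Where this RNA came from was not tested. In the lung, 9 endothelial markers other than PECAM1 and KDR stood in collagen-high cells at 8.85% to 15.8% of their endothelial level, and in the deep aorta cells at 0.883% to 6.23%. TFPI at 6.03% (1.95 to 14.1) and THBD at 13.8% (0.345 to 78.4) were within counting error of this range in the lung, as were TFPI at 5.64% and THBD at 4.94% in the aorta. These 2 genes were thus not measurable above the share of the endothelial markers in collagen-high cells.
PROCR stood at 19.3% (12.7 to 28.1) in the lung, above every marker, with an interval that reaches into the marker range. In the aorta it stood at 5.63% (4.40 to 7.10), inside the range. Whether the PROCR RNA counted in collagen-high cells was made by those cells was not tested. F3 stood at 104% (86.3 to 124) in the lung and 212% (192 to 233) in the aorta, far above any of the markers.

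Shares of cells gave the same picture at equal depth, with each cell thinned to 5000 UMIs and shallower cells left out. A PROCR UMI was found in 16.4% of 4934 lung endothelial cells (15.4 to 17.5) and in 50.1% of 663 aorta endothelial cells (46.2 to 53.9). For TFPI the shares were 10.5% (9.62 to 11.3) and 2.56% (1.50 to 4.07), for THBD 1.07% (0.806 to 1.40) and 3.02% (1.85 to 4.62), and for VWF 0.223% (0.111 to 0.399) and 0.151% (0.00382 to 0.837). Thinning left out 352 lung and 41 aorta endothelial cells. Without thinning, the deep aorta cells had a PROCR UMI in 98.8% and a THBD UMI in 28.4% of cells.
The shares of F3 were close to each other in endothelial cells, 12.7% (11.8 to 13.7) in the lung and 10.9% (8.59 to 13.5) in the aorta, and reached 13.9% (10.3 to 18.2) of 316 lung and 20.6% (14.2 to 28.2) of 141 aorta collagen-high cells. CDH5, by comparison, was met in 52.7% of lung and 60.3% of aorta endothelial cells, and in 6.96% and 0.709% of the collagen-high cells.

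**Figure D3:**
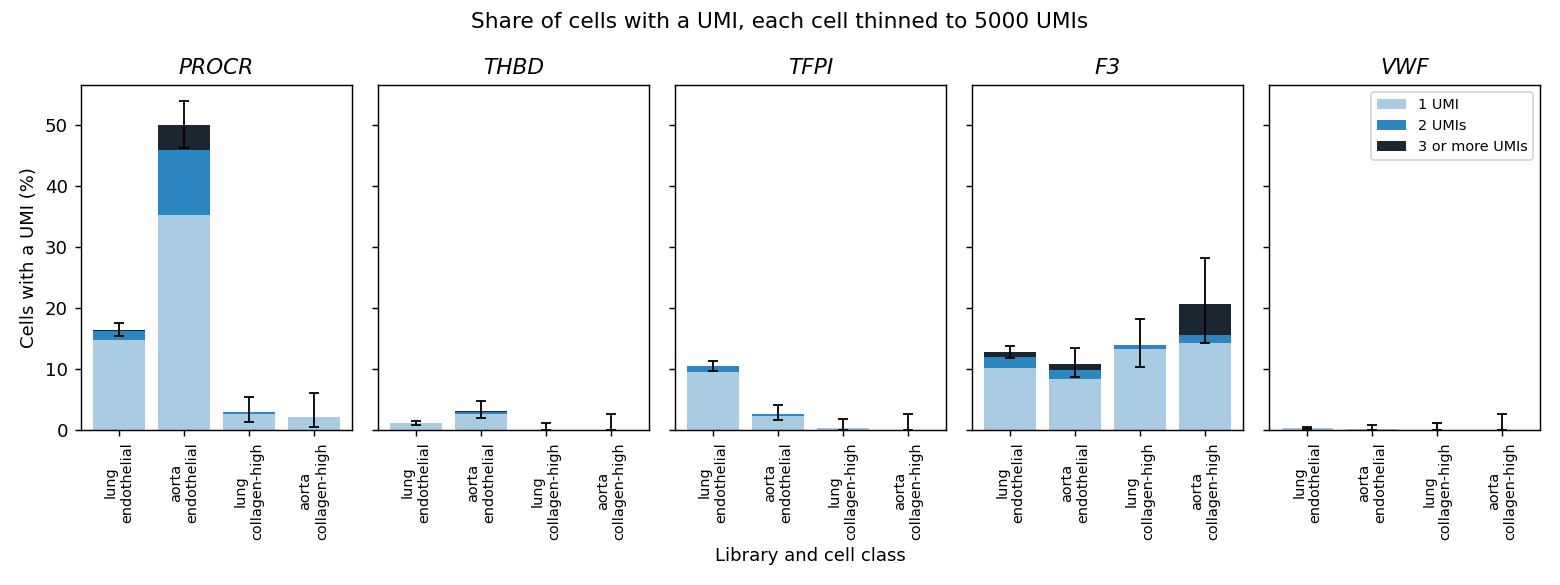
Share of cells with 1, 2 and 3 or more UMIs of each gene after thinning to 5000 UMIs, in endothelial cells and collagen-high cells of both libraries (deep aorta cells included). Bars on the columns are exact 95% binomial intervals of the share with any UMI. PROCR reaches 50.1% of aorta endothelial cells, and the part with 3 or more UMIs is largest for F3 in aorta collagen-high cells, 4.96%.

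F3 was spread most unevenly in aorta collagen-high cells. At equal depth the variance of its UMIs per cell was 1.48 times the mean in lung and 1.56 times in aorta endothelial cells, and 3.16 times in aorta collagen-high cells, where a Poisson spread of the same mean would reach 33.7% of cells against the 20.6% found. In lung collagen-high cells it was 0.944 times the mean. For PROCR the ratio was 1.06 in the lung and 1.26 in the aorta, and for TFPI 1.10 and 1.18.
EGFL7, ESAM, CDH5 and ECSCR, which mark the endothelial classes, had ratios of 1.34, 1.08, 1.02 and 1.10 in lung endothelial cells. In aorta endothelial cells they had 1.38, 1.35, 1.14 and 1.18, and each ratio in endothelial cells lay below that of F3 in the same cells. In lung collagen-high cells the same markers had 1.52, 1.65, 1.34 and 2.48, above the 0.944 of F3. In aorta collagen-high cells they had 1.07, 0.986, 1.0 and 2.98, below the 3.16 of F3, but from only 13, 3, 1 and 6 UMIs. Among the 581 deep aorta endothelial cells, 241 had an F3 UMI, 33 held 10 or more and the highest held 38. The 58 cells richest in F3 carried 65.1% of its UMIs, against 67.3% for TFPI, 55.6% for THBD and 30.3% for PROCR, a share that also depends on the level of each gene. In the 128 deep collagen-high cells, 73 had an F3 UMI, 24 held 10 or more and the highest held 57.
PROCR had a median of 7 UMIs per deep aorta endothelial cell. The genes with few UMIs leave little room to tell such a spread from counting.

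F3 was higher in the cells rich in inflammatory RNA. Endothelial cells were ranked by the share of their UMIs from 7 genes of an inflammatory list (VCAM1, ICAM1, CCL2, CXCL8, IL6, NFKBIA and TNFAIP3), in which VCAM1, CCL2 and CXCL8 hold most UMIs, and the cells with the highest shares (top group) were compared with those with the lowest (low group). These groups held 1322 cells each in the lung, and 145 and 146 of the deep cells in the aorta. In the lung, F3 was 18.6 CPM in the low and 47.9 CPM in the top group, a ratio of 2.58 (2.21 to 3.01) from 231 and 626 UMIs. In the deep aorta cells it was 10.2 and 67.0 CPM, a ratio of 6.57 (5.24 to 8.33) from 87 and 579 UMIs.
The groups were of similar depth, with medians of 8896.5 and 9684 UMIs per cell in the lung and 56462 and 58862 in the aorta, and thinned cells gave ratios of 2.53 (2.05 to 3.13) and 6.26 (2.94 to 15.3). In the deep aorta collagen-high cells F3 went from 61.7 to 141 CPM, a ratio of 2.29 (1.86 to 2.83), and in lung collagen-high cells from 24.7 to 30.4 CPM, a ratio of 1.23 (0.690 to 2.28) whose interval holds 1. F3 thus stood higher in the top group in both endothelial classes and in the deep aorta collagen-high cells. In thinned lung endothelial cells F3 was also higher in those richest in smooth muscle markers, 44.0 against 26.5 CPM, a ratio of 1.66 (1.36 to 2.02), and the part of those markers in the inflammatory ratio was not tested.
The inhibitor went the other way. TFPI was 25 CPM in the low and 20.5 CPM in the top group of lung endothelial cells, a ratio of 0.819 (0.693 to 0.968), and 7.38 and 4.63 CPM in the deep aorta cells, a ratio of 0.627 (0.411 to 0.947).
THBD did not differ beyond counting error by this ranking, with ratios of 0.878 (0.482 to 1.59) and 1.16 (0.788 to 1.70). PROCR was lower in the top group of the deep aorta cells, 157 against 127 CPM (0.810, 0.747 to 0.878), and in the lung the ratio was 0.904 (0.794 to 1.03), or 0.804 (0.666 to 0.970) in thinned cells. For VWF the low group of lung cells held 10 UMIs and the top group 2, too few to read a level from.

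The cells were also ranked by interferon and cell cycle genes. By 6 interferon response genes (CXCL10, RSAD2, IFIT2, ISG15, MX1 and ISG20), the top group of deep aorta endothelial cells held 9.0 CPM of THBD against 4.64 CPM in the low group, a ratio of 1.94 (1.31 to 2.92), and 3.20 CPM of TFPI against 7.77 CPM, a ratio of 0.412 (0.253 to 0.652). In all 663 aorta endothelial cells thinned to 5000 UMIs, the deep ones among them, the ratios were 1.30 (0.349 to 4.88) for THBD, from 6 UMIs in each group, and 0.290 (0.0305 to 1.40) for TFPI, from 9 and 2 UMIs, and these intervals hold 1. In the lung the same rankings gave 1.05 (0.560 to 1.98) for THBD and 1.16 (0.980 to 1.38) for TFPI. The lung intervals hold 1, and whether the vessels differ in this was not tested. For F3 the interferon ranking gave 1.51 (1.29 to 1.77) in the aorta and 1.12 (0.976 to 1.28) in the lung, or 1.40 (0.794 to 2.49) and 1.33 (1.11 to 1.60) in thinned aorta and lung cells.
THBD was lower in deep aorta cells with more cell cycle RNA at full depth. It was 11.8 CPM in the low and 3.92 CPM in the top group by G2M genes, a ratio of 0.333 (0.222 to 0.491), and 10.3 and 4.51 CPM by S phase genes, a ratio of 0.436 (0.295 to 0.636). The lung ratios were 0.868 (0.493 to 1.53) and 0.784 (0.452 to 1.36). In the thinned aorta cells the G2M ratio was 0.290 (0.0315 to 1.30) from 2 top and 12 low UMIs, and the S phase ratio was on the other side of 1, at 1.40 (0.410 to 4.41) from 6 and 9 UMIs. In thinned lung cells these ratios were 0.915 (0.409 to 2.0) and 1.74 (0.838 to 3.68), and all 4 intervals hold 1.
PROCR was a little lower in the G2M-high group of both vessels, with ratios of 0.812 (0.713 to 0.926) in the lung and 0.829 (0.767 to 0.897) in the aorta. The top G2M group was also deeper, at a median of 65410 against 54629.5 UMIs per cell in the aorta and 11363 against 9298.5 in the lung, and thinned cells, ranked anew with ties kept together, gave PROCR ratios of 0.765 (0.633 to 0.922) in the lung and 0.919 (0.707 to 1.19) in the aorta. Within the lung, the 1234 deepest cells held 19 THBD UMIs against 5 in the 1234 shallowest after thinning to equal depth, and 109 against 180 TFPI UMIs. F3 had 237 against 161 UMIs, a ratio of 1.47 (1.20 to 1.81), and PROCR 228 against 208, a ratio of 1.10 (0.904 to 1.33). Ranked by mitochondrial share, TFPI was higher in the top group of lung cells, at a ratio of 1.69 (1.33 to 2.16). The intervals of these ratios were not adjusted for the number of rankings.

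**Figure D4:**
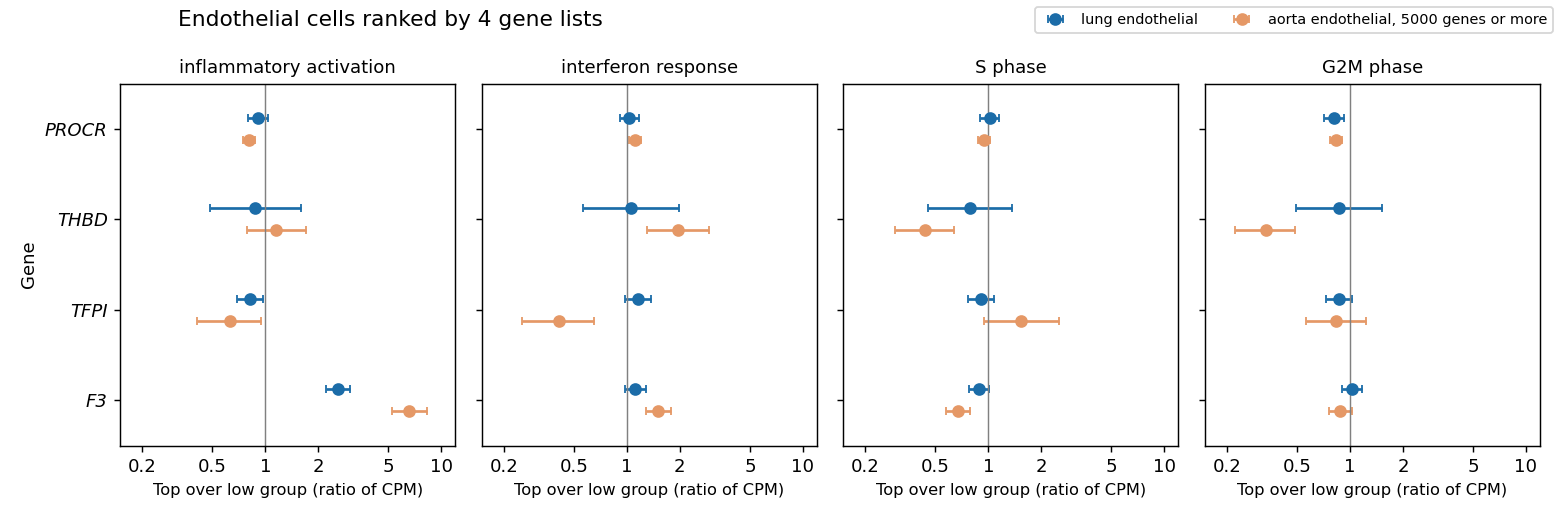
Ratio of pooled CPM (log axes) between the top and the low group of endothelial cells ranked by the share of UMIs from 4 gene lists, for the lung and for deep aorta cells, with exact 95% intervals that cover counting error only. VWF, with 10 UMIs or fewer in a group, is not drawn. Of the 4 genes drawn, F3 by the inflammatory list has the highest ratios, 2.58 and 6.57, and THBD by the G2M list in the aorta the lowest, 0.333.

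In single cells, no pair of the 5 genes had shares whose intervals lay apart. Among thinned lung endothelial cells, F3 was found in 9.88% of cells with a TFPI UMI (7.45 to 12.8) and in 13% of the rest (12.1 to 14.1), and PROCR in 19.0% (15.7 to 22.6) and 16.1% (15.0 to 17.2). Among deep aorta cells thinned to 20000 UMIs, F3 was found in 18.8% of cells with TFPI (10.1 to 30.5) and 25.9% of the rest (22.2 to 29.9), and TFPI in 10.1% of cells with THBD (4.47 to 19.0) and 11.2% of the rest (8.54 to 14.2). In the lung, TFPI was found in 1.89% of cells with THBD (0.0478 to 10.1) and 10.6% of the rest (9.70 to 11.4). There 1 cell held both genes where 5.54 were expected without pairing. For TFPI with F3 it was 51 against 65.6, and for TFPI with PROCR 98 against 84.6. The intervals of each of these pairs overlap, but overlap is no test, and pairing was not tested.
Among the genes most like F3 across the 4934 thinned lung cells were CXCL8, CCL2, IER3 and CXCL2, with Pearson correlations of 0.11, 0.11, 0.10 and 0.08. CXCL8, a neutrophil chemokine, was also the gene with rank 2 of 5472 for F3 in the 663 aorta cells, at 0.19. For TFPI the gene most like it was IL33 (0.07 in the lung, 0.12 and rank 21 of 5473 in the aorta), and for PROCR it was MT1X (0.06 and 0.02), with VIM at 0.05 in the lung and 0.16 and rank 3 in the aorta. These are descriptions across cells of 1 library that share depth and ambient RNA, and with counts this sparse values of this size are weak. THBD and VWF had too few UMIs to be ranked.

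The rest of the clotting pathway set the 5 genes in place. Of 14 procoagulant genes among the features, F3 was the one that reached 20 CPM in an endothelial class. F5 stood at 2.84 CPM in the lung and 8.31 CPM in the deep aorta cells, and F8, whose product VWF carries, at 1.15 and 3.58 CPM. F9, F13A1, F13B and FGG, made mainly outside endothelium, had 0 UMIs in these classes, and F7 was at 0.0289 CPM or less.
Of 12 anticoagulant genes, 7 reached 20 CPM in an endothelial class within the limits. TFPI was over the fold of 2 in the lung, and PROCR, PROS1 and GAS6 in the aorta, where 3.84% and 6.37% of all genes compared were. The median lung-to-aorta log2 ratio of the 7 was -0.68, against -0.02 over all genes compared. PROS1, the protein S gene and cofactor of activated protein C, stood at 32.2 CPM in the lung and 64.3 CPM in the deep aorta cells, while TFPI2 stood at 47.0 and 49.9 CPM. With the deep cells included, SERPINE2 was called in the aorta in place of GAS6.
Among genes of platelet control, NOS3 (nitric oxide synthase of endothelium) stood at 48.0 and 89.0 CPM and PTGIS (prostacyclin synthase) at 399 and 248 CPM in lung and deep aorta cells, and PTGS2 was over the fold of 2 in the aorta at 50.9 and 239 CPM. The thrombin receptor F2R stood at 17.9 and 31.7 CPM.

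Genes of the VWF storage granule were counted at other levels than VWF. SELP, the P-selectin gene whose product lies in the same granules as VWF, stood at 128 CPM in lung, 363 CPM in aorta endothelial cells within the limits and 448 CPM in the deep ones, and was over the fold of 2 in the aorta. CD63 stood at 1683 and 1499 CPM in lung and deep aorta cells and RAB27A, a granule GTPase, at 23.6 and 25.6 CPM. ANGPT2, another granule cargo, was low as VWF was, at 1.90 and 2.39 CPM, and stood at 33.9 and 29.0 CPM in the collagen-high cells.
Of 13 genes of VWF storage and handling among the features, 6 reached 20 CPM in an endothelial class within the limits, 0 were over the fold of 2 in the lung and 1, SELP, was in the aorta, where 3.84% and 6.37% of all genes compared were. Transcription factors known to act on endothelial promoters were counted in the same cells, with ERG at 127 and 150 CPM, ETS1 at 124 and 141 CPM, FLI1 at 51.3 and 54.7 CPM and GATA2 at 52.9 and 83.3 CPM. KLF2 and KLF4, which are known to respond to flow, stood at 16.9 and 22.4 CPM in the lung and 34.3 and 41.1 CPM in the deep aorta cells. The low VWF count was read in pooled classes where SELP, ERG and GATA2 were also counted, while ANGPT2 and KDR were low. Whether these genes lay in the same cells was not tested.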

How the data were processed

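The authors deposited counts for cultured aorta ECs and cultured lung ECs, whole numbers of UMIs per gene and barcode from 10x 3′ libraries (v3 chemistry), made with Cell Ranger 3.0.2 (submitters' processing notes) on Ensembl Sscrofa11.1. The deposited matrices were neither normalized nor limited by cell quality. The 5 genes, the gene lists and the comparisons were chosen with earlier results of these data known. Cells were kept with over 200 and under 5000 genes and a share below 30% of 12 mitochondrial genes, as in the methods, with the deeper cells given beside them. No doublet caller was run, and cells with at least 3 UMIs of both PECAM1 and the collagens were removed in an alternative. UMIs were summed per library and class and scaled to 1000000 (CPM). Class pairs were compared by the ratio of CPM, and a gene was called past a fold of 2 with 20 CPM or more in either class. With 1 library per group no test was run. Of 7821 features given only by an identifier, 1051 received a symbol from a table of gene names. Of 149 genes on the lists, 140 were features. The genes named were the 5 members, list genes with 20 CPM or more first, and for members with 100 or more thinned UMIs genes among the 5 most correlated of those seen in 10% of cells, 1 of which is not reported here. Gene positions and sequences came from the RefSeq annotation of the same build. Lists with F5, F8 and other low genes were described with values below 20 CPM, chosen after they were seen. Python 3.11.15, numpy 2.4.6, pandas 2.3.3, scipy 1.17.1 and matplotlib 3.10.9 were used, and the code was tested on simulated data.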

Additional observations from a re-analysis of the deposited data

Results flagged for a closer look

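Barcodes outside the limits on cells (200 or fewer genes, or 30% or more mitochondrial UMIs) were used in no comparison, and they held reads of the clotting genes above the 3 counts that a count of 0 allows. The 230 such barcodes of the aorta library held 68 F3 UMIs and 40 PROCR UMIs, at 78.6 and 46.2 CPM. The 237 such barcodes of the lung library held 11 F3 UMIs and 4 TFPI UMIs, at 42.3 and 15.4 CPM. Of the 68 F3 UMIs, 26 lay in 2 of the 18 collagen-high barcodes, a pooled level of 251 CPM (164 to 368). Another 30 lay in 14 of the 40 endothelial barcodes, at 79.7 CPM (53.8 to 114). With the UMIs in so few barcodes, these pooled levels do not describe the typical barcode. The median mitochondrial share of the 230 aorta barcodes outside the limits was 88.6%, against 6.37% in the aorta endothelial cells within the limits.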

How the results depend on the processing

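Over 11 ratios and 112 alternatives, 101 values stayed within the counting interval of the reported one and 11 moved beyond it. None of the moved ratios crossed 1 except for F3, whose intervals hold 1 in all 3 comparisons within the limits. Staying within is a weak check where the interval is wide, as for THBD in the lung (1.28 to 290). For TFPI, endothelial over collagen-high cells in the aorta, the interval also holds 1 (0.193 to 63.8). Its ratio went from 1.44 to 0.317 when thinned to 5000 UMIs, across 1, and counted as within. For THBD, lung over aorta endothelial cells, weighting each cell equally gave 0.105 and a second draw of the thinning to 5000 UMIs gave 0.548. For F3 the same comparison thinned to 5000 UMIs gave 1.22, and for PROCR the 2 draws gave 0.341 and 0.315. Endothelial over collagen-high cells in the lung gave 1.03 for THBD thinned to 2000 UMIs, and for PROCR 8.39 thinned to 2000 UMIs and 8.83 without cells that held both kinds of UMIs. In the aorta, F3 gave 0.484 with no upper limit on genes and 0.872 thinned to 5000 UMIs, and PROCR gave 5.23 thinned to 2000 UMIs. The cause was not tested. Thinning to 5000 UMIs left 82 endothelial and 13 collagen-high aorta cells. The second draw, and the removal of endothelial cells with a collagen UMI, were added after seeing the data. No paired analysis was possible because each group is 1 library. The depth limits VWF to an upper bound in the aorta cells within the limits, and no value here has a replicate.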

Other observations

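Some other genes of clotting were higher in the collagen-high cells than in the endothelial cells, while others went the other way. PROS1 stood at 21.0 CPM in lung and 13.9 CPM in deep aorta collagen-high cells against 32.2 and 64.3 CPM in the endothelial cells, and TFPI2 at 26.1 and 20.0 CPM against 47.0 and 49.9 CPM. SERPINE2, which encodes an inhibitor of thrombin known as protease nexin 1, stood at 304 CPM in lung collagen-high cells and 487 CPM in the deep aorta ones, against 18.2 and 38.0 CPM in the endothelial cells of the same libraries. F2R, the thrombin receptor, stood at 42.4 CPM in lung collagen-high and 17.9 CPM in lung endothelial cells, and at 41.9 and 31.7 CPM in the deep aorta cells. F10, the gene of factor X, was low everywhere but higher in collagen-high cells, at 2.07 and 4.58 CPM against 0.537 and 0.289 CPM in lung and deep aorta cells. ANXA5, the gene of the membrane-binding protein annexin A5, stood at 1175 and 1346 CPM in collagen-high cells against 976 and 844 CPM in the endothelial cells. With 1 library each, these are values with no replicate check, and the genes were chosen after their values were seen.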
